A study of Mus musculus with 18 samples.

Results

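Neutrophil granule and alarmin genes were followed through the response of macrophages to LPS, with and without IRF5 and with and without the kinase inhibitor defactinib. The genes were the rows of the deposited count table whose Ensembl identifiers carry 9 mouse symbols, S100a8, S100a9, Lcn2, Saa3, Ngp, Camp, Ltf, Elane and Mpo, out of 50600 gene identifiers. Each had reads in at least 1 library, and 8 passed the filter on low counts, Mpo being the exception. The cells were bone marrow-derived macrophages (BMDMs) of WT mice or of mice that lack the transcription factor IRF5 (IRF5 KO, Irf5-/-), all grown with GM-CSF for 8 days. Each genotype had 3 groups of 3 libraries. Unstimulated cells received DMSO according to the labels, although the column names mark them as untreated. LPS DMSO cells had DMSO for 1 h and then 100 ng/ml LPS for 2 h, and LPS defactinib cells had 3.5 μM defactinib, an inhibitor of the kinases FAK and PYK2, for 1 h before the same LPS. The submitters call the 3 libraries of a group biological replicates, and the study's methods name purchased male C57BL/6 J mice aged 8 to 11 weeks without saying whether these gave the marrow.

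Neutrophils store antimicrobial proteins in granules that are filled in sequence as the cell matures in the marrow. Primary granules carry the haem enzyme myeloperoxidase (Mpo) and the serine protease neutrophil elastase (Elane). Specific granules, made later, carry the iron-binding protein lactoferrin (Ltf), the cathelicidin antimicrobial peptide precursor (Camp), neutrophilic granule protein (Ngp) and lipocalin 2 (Lcn2), which binds bacterial iron carriers. S100a8 and S100a9 pair as calprotectin, a cytosolic metal-binding protein that acts as an alarmin when released, and Saa3 encodes a serum amyloid A that macrophages make in inflammation. Macrophages are known to induce Lcn2, Saa3 and the calprotectin genes after TLR signals, whereas the primary granule genes belong to early myeloid progenitors.

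The promoters of 6 members are shown because S100a8 and S100a9, and Ngp and Ltf, had the most similar levels across libraries, and because Lcn2 and Saa3 shared 1 library of very high level. The sequences are those of RefSeq on GRCm38.p6, from 250 bases before to 50 bases after the annotated start, 5′ to 3′ on the strand of the gene. Capitals mark matches on either strand to a C/EBP-like motif, TTGCNNAA. They also mark an NF-kappaB-like motif, GGGA and CC with any 4 bases between, and the letters TATAAA. Positions count the annotated start as base 1. S100a8 lies on chr3:90668821-90669120 (plus strand), S100a9 on chr3:90695672-90695971 (minus), Lcn2 on chr2:32387690-32387989 (minus), Saa3 on chr7:46715627-46715926 (minus), Ngp on chr9:110419558-110419857 (plus) and Ltf on chr9:111019042-111019341 (plus).
S100a8: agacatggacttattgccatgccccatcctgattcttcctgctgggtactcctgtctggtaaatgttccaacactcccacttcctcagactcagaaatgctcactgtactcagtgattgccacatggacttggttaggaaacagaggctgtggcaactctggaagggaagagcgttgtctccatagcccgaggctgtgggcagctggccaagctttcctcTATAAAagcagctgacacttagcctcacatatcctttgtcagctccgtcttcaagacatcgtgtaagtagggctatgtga
S100a9: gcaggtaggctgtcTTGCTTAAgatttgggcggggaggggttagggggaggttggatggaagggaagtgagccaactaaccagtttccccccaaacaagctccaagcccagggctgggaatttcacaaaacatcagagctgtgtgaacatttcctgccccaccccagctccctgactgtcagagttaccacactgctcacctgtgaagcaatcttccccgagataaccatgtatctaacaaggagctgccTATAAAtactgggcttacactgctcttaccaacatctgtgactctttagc
Lcn2: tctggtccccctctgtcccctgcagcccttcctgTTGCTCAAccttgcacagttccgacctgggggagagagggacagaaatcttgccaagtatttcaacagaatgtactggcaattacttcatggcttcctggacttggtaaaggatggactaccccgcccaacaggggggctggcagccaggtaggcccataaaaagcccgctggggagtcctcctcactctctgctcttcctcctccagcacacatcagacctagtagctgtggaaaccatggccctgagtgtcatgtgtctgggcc
Saa3: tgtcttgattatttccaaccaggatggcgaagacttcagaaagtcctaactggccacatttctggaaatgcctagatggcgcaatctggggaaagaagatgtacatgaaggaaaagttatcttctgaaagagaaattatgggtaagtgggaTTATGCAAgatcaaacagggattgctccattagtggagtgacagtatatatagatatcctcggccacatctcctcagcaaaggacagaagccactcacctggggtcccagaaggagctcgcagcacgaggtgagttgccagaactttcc
Ngp: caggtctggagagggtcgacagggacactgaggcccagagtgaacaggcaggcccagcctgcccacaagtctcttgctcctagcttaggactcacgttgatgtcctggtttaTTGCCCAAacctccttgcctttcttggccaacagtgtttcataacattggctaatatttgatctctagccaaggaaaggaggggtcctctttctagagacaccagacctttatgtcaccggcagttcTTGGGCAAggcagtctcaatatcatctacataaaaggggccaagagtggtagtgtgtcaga
Ltf: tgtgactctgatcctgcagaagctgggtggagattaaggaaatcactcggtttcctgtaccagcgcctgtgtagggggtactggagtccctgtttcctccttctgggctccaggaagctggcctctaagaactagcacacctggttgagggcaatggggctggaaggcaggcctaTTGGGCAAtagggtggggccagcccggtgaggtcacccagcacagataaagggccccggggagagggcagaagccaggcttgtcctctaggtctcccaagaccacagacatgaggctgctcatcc
The C/EBP-like letters were found 216 bases before the start of Lcn2, 99 before that of Saa3, 75 before that of Ltf, 236 before that of S100a9, and at 138 and 11 bases before that of Ngp. S100a8, Camp, Elane and Mpo held none. Of 32544 promoters of the same length, 10.8% hold this motif. The letters TATAAA stood 30 bases before the start of S100a8 and at the start itself in S100a9, and 13.6% of all promoters hold them. The NF-kappaB-like letters, in 20.8% of all promoters, were found in Camp alone of the 9, as 1 palindrome that begins at base 36 and counts on both strands. A match describes letters and not a bound site, and no match says only that these letters are missing from the window. In mm10 the alarmin and acute phase genes were S100a8 (ENSMUSG00000056054) at chr3:90668978-90670035, S100a9 (ENSMUSG00000056071) at chr3:90692632-90695721 and Saa3 (ENSMUSG00000040026) at chr7:46711998-46715700. The specific granule genes were Lcn2 (ENSMUSG00000026822) at chr2:32384633-32388252, Ngp (ENSMUSG00000032484) at chr9:110419747-110423012, Camp (ENSMUSG00000038357) at chr9:109847379-109849617 and Ltf (ENSMUSG00000032496) at chr9:111019271-111042767. The primary granule genes were Elane (ENSMUSG00000020125) at chr10:79886247-79888215 and Mpo (ENSMUSG00000009350) at chr11:87793581-87804413. Each value counts read pairs over all exons of the gene. S100a8 and S100a9 lie within 0.0267 megabases of each other, and Camp, Ngp and Ltf within 1.195 megabases of chromosome 9.

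The libraries held from 39282181 to 61949143 counted read pairs. Levels are given as CPM, counts scaled to a common library size after TMM normalisation, and a gene was called when edgeR's quasi-likelihood test gave a Benjamini-Hochberg adjusted p below 0.05 and a log2 fold change beyond 1. Reads still fell on Irf5 in the knockout, at 335 to 397 CPM in unstimulated cells against 587 to 650 CPM in WT. After LPS it was at 345 to 435 CPM in the knockout and 434 to 475 CPM in WT, and with defactinib at 353 to 392 CPM against 213, 234 and 379 CPM, so that whole-gene counts do not check the knockout. Macrophage genes were high in every library, with the summed CPM of 10 macrophage markers between 1949 and 3240. Before any result, 2 libraries stand apart. Over all tested genes, IRF5 KO LPS DMSO replicate 3 correlated at r = 0.934 with its own group and at 0.981 with IRF5 KO unstimulated cells, while replicates 1 and 2 of that group correlated at 0.989 with the IRF5 KO LPS defactinib libraries. WT LPS defactinib replicate 3 had the lowest correlation with the other libraries of its group, 0.978, after the former, and was far from them in Lcn2 and Saa3. The levels of the IRF5 KO LPS DMSO libraries thus go in part against their labels, and the files do not settle whether these labels are right. Values of IRF5 KO LPS DMSO and of the comparisons that use it, defactinib in IRF5 KO included, are therefore those of the libraries so labelled. The main values that turn on one of the 2 libraries are also given without it.

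Per length of exon, which allows levels of different genes to be compared, the alarmins led. Over 18 libraries S100a9 had a mean level of 90.4 CPM per kb and S100a8 of 71.7, followed by Saa3 at 22.6, Ngp at 15.1 and Lcn2 at 14.2. The means of Saa3 and Lcn2 include WT LPS defactinib replicate 3, at 97.6 and 77.7 CPM per kb. The order of these 3 genes differed between groups, with Ngp at 23.02 and Saa3 at 17.05 CPM per kb in WT LPS DMSO. Ltf at 3.05 and Camp at 2.59 CPM per kb stood near the middle of all tested genes, with 48.9% and 45.9% of these below them, while 94.7% of tested genes were below S100a8. The primary granule genes were at the bottom, Elane at 0.163 and Mpo at 0.0279 CPM per kb. The genes of this set were therefore counted over a very wide range, and the ones below 1 CPM are given as counts.

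**Figure D1:**
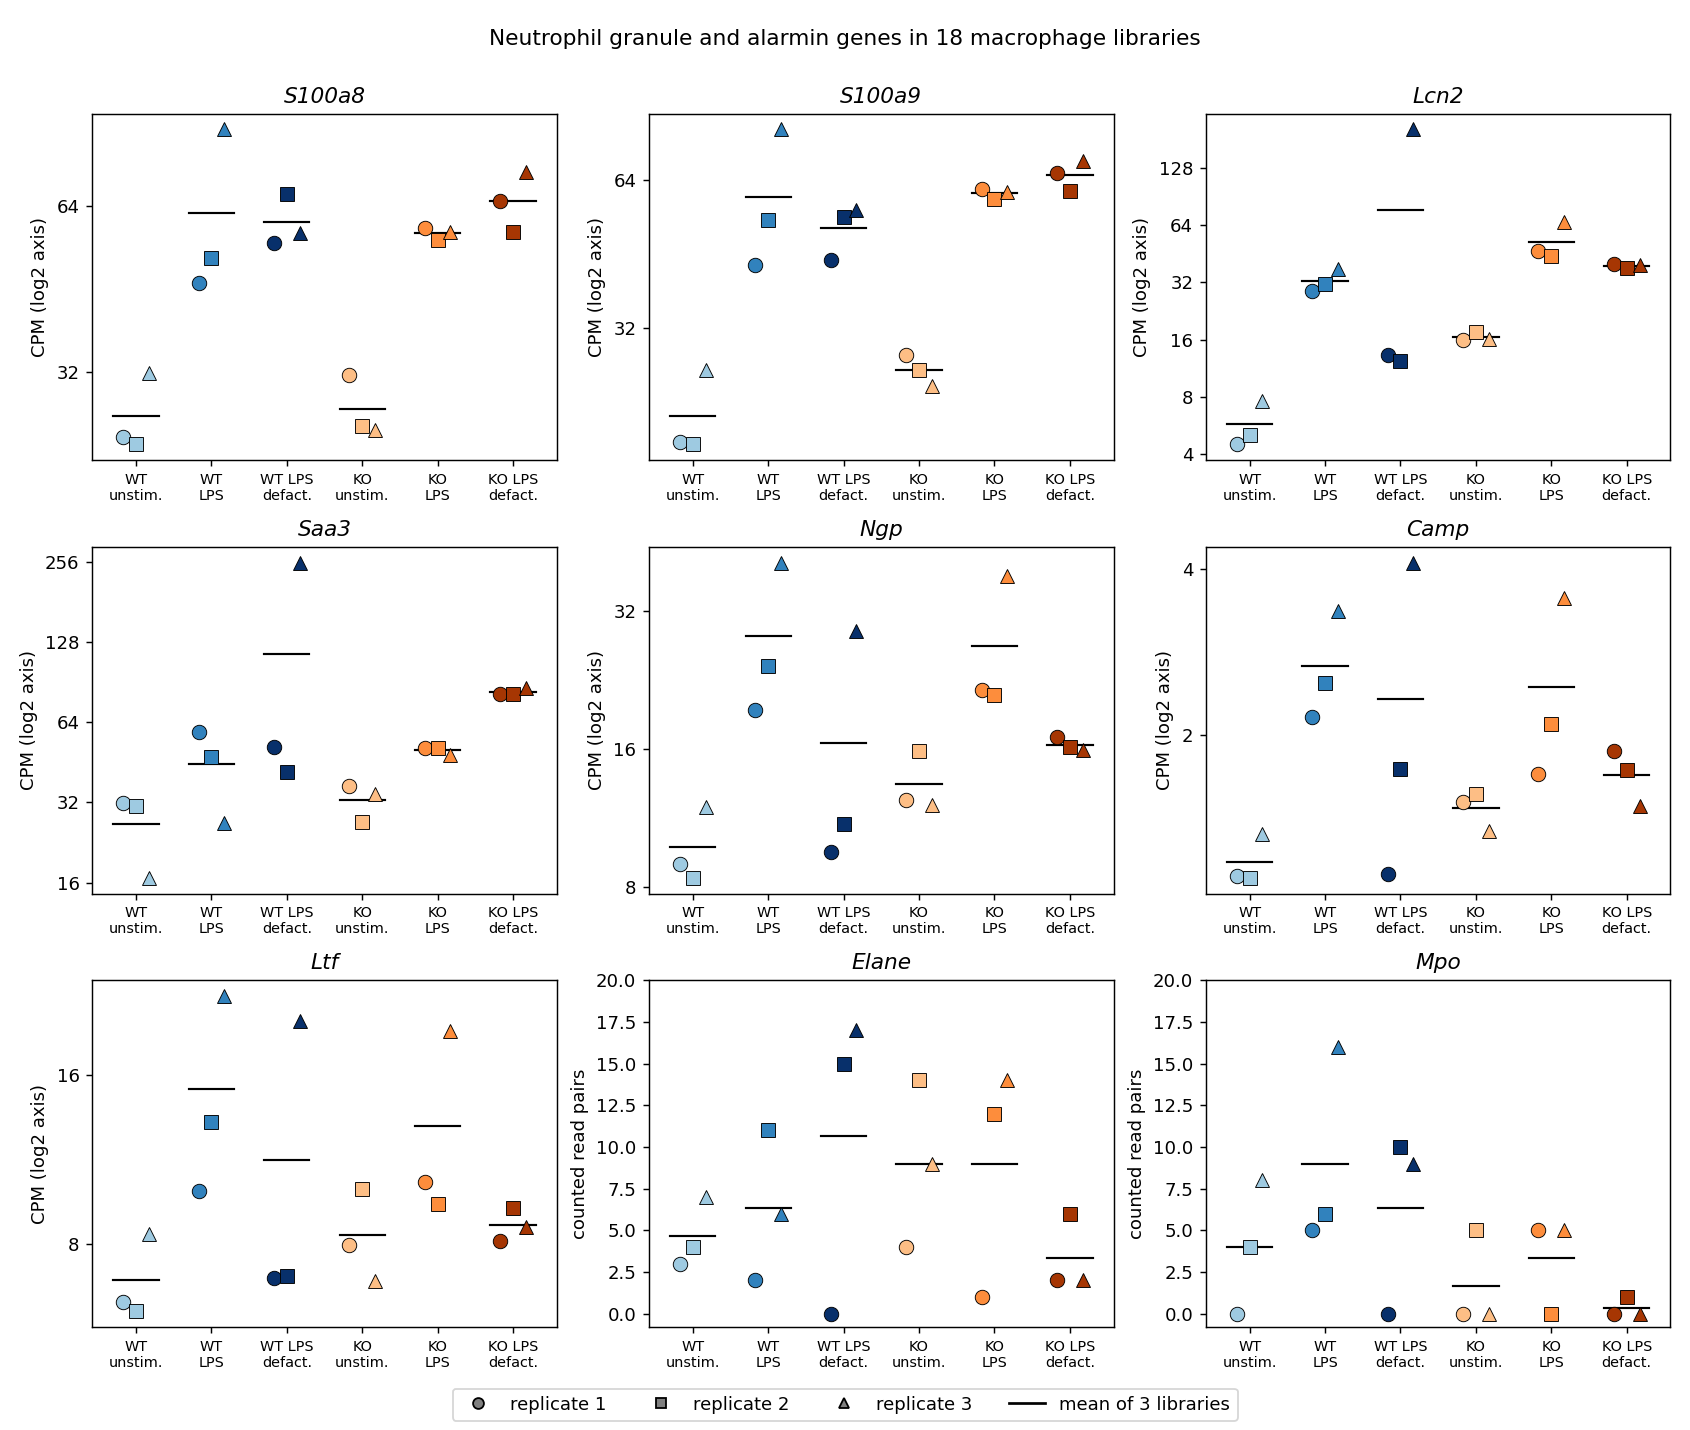
Level of each gene in 18 libraries, by group (x axis). The y axis is CPM on a log2 scale for 7 genes and counted read pairs on a linear scale for Elane and Mpo, KO is IRF5 KO, symbols are libraries by replicate number and bars are means of 3. WT LPS defactinib replicate 3 stands at 203.7 CPM in Lcn2 and 254.3 CPM in Saa3, above every other library, and Elane and Mpo do not exceed 17 read pairs.

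LPS raised 6 of the 8 tested members in WT BMDMs, beside 11.6% of all tested genes called higher, and none was called lower, beside 9.71%. Those were S100a8, S100a9, Lcn2, Ngp, Camp and Ltf. The median log2 fold change of the 8 was 1.201, beside -0.005 over all tested genes. In these 6 genes the 3 LPS libraries did not overlap the 3 unstimulated ones, which held in this direction for 31.8% of tested genes.

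Lcn2 had the largest change of the set. It was at 4.51, 5.07 and 7.67 CPM in unstimulated WT cells and at 28.8, 31.3 and 37.5 CPM after LPS, so that every LPS library lay above all unstimulated ones. The log2 fold change was 2.50 ± 0.77 (SE, n = 3 against 3, adjusted p = 0.0159). For S100a9 the unstimulated libraries gave 18.7, 18.5 and 26.2 CPM and the LPS libraries 42.9, 53.1 and 81.1 CPM. Replicate 3 was the highest in both groups, and the rise was 1.48 ± 0.19 (SE) on the log2 scale (adjusted p = 1.47e-05). S100a8, its partner in calprotectin, went from 24.4, 23.6 and 31.8 CPM to 46.4, 51.5 and 88.2 CPM, a log2 fold change of 1.22 ± 0.20 (SE, adjusted p = 0.000141).

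Ngp, Ltf and Camp, the specific granule genes other than Lcn2, moved by amounts similar to those of S100a8 and S100a9, from lower levels than these 2. Ngp was counted at 8.97, 8.39 and 11.96 CPM before and at 19.4, 24.3 and 40.7 CPM after LPS, a log2 fold change of 1.53 ± 0.38 (SE, adjusted p = 0.00404). Ltf was at 6.31, 6.09 and 8.33 CPM and then at 9.95, 13.2 and 22.1 CPM, a change of 1.13 ± 0.39 (SE, adjusted p = 0.0301). Camp rose from 1.10 to 1.32 CPM in unstimulated libraries to between 2.16 and 3.36 CPM, by 1.18 ± 0.38 (SE, adjusted p = 0.0202). In all of them replicate 3 of the LPS group was the highest, and in Ltf replicate 1 was close to the unstimulated range.

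Saa3 did not pass. Its libraries read 31.8, 30.9 and 16.7 CPM unstimulated and 58.9, 47.6 and 26.8 CPM after LPS, so that LPS replicate 3 fell inside the unstimulated range, and the log2 fold change was 0.75 ± 0.51 (SE, adjusted p = 0.268). In both WT groups replicate 3 had the lowest Saa3 and the highest S100a8, S100a9, Lcn2, Ngp, Camp and Ltf. The count of 6 fell to 3 when WT LPS DMSO replicate 3 was left out, with S100a9, Lcn2 and Ngp called, S100a8 at a log2 fold change of 0.88 and 20.1% of all genes called. Scaling by library size alone, which lowers the median of all genes to -0.38, gave 3 as well (S100a9, Lcn2 and Ngp), beside 26.4% of all genes. It was also 3 when WT unstimulated replicate 1 or replicate 2 was left out, with S100a8, S100a9 and Ngp called beside 19.3% and 19.1% of all genes.

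**Figure D2:**
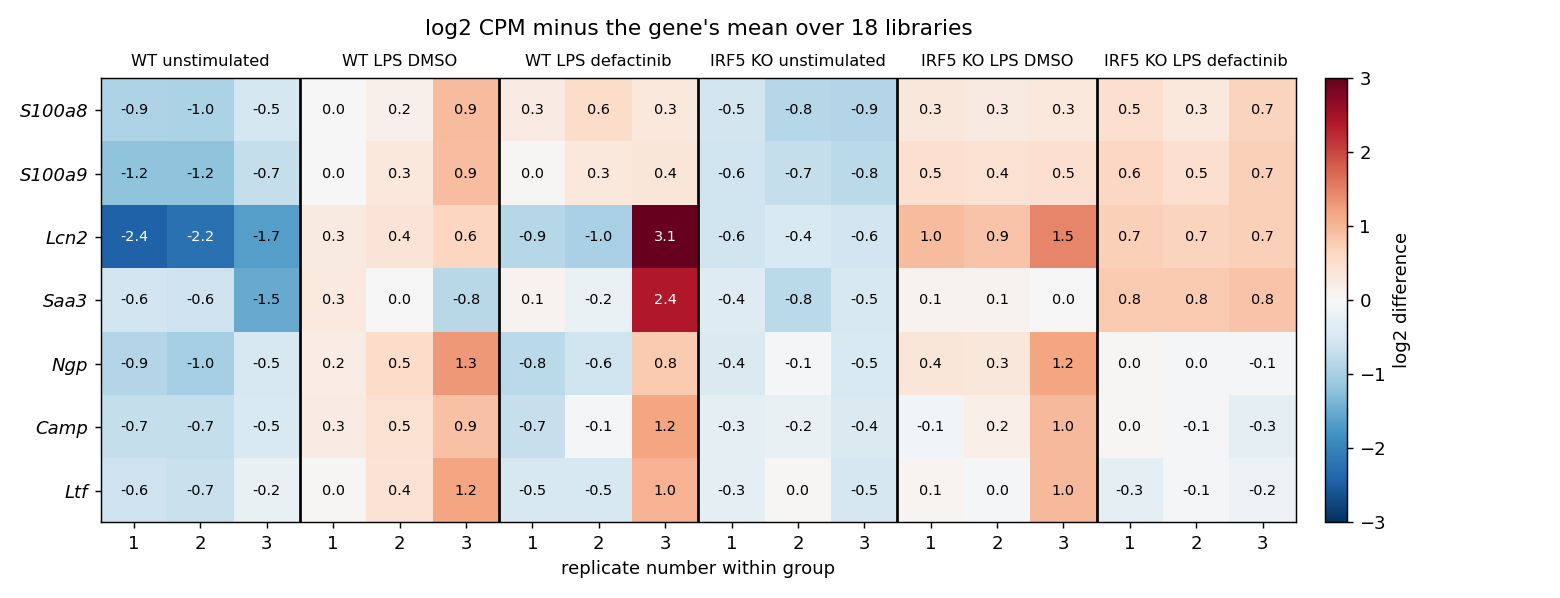
Each cell is the log2 CPM of a gene (rows) in a library (columns, by group and replicate number) minus the mean of that gene over 18 libraries. Lcn2 spans the widest range, from -2.4 in WT unstimulated replicate 1 to 3.1 in WT LPS defactinib replicate 3, and within both WT LPS groups and IRF5 KO LPS DMSO, Ngp, Camp and Ltf are highest in replicate 3.

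In IRF5 KO BMDMs, LPS raised S100a8 and S100a9, 2 of 8 tested members beside 7.07% of all tested genes called higher, and none was called lower, beside 6.28%. S100a8 was at 31.6, 25.5 and 25.1 CPM unstimulated and at 58.4, 55.5 and 57.5 CPM after LPS, and its 3 LPS libraries lay closer together than in any other group. The log2 fold change was 1.06 ± 0.20 (SE, adjusted p = 0.0021). S100a9 went from 28.2, 26.3 and 24.4 CPM to 61.3, 58.6 and 60.4 CPM, a change of 1.19 ± 0.19 (SE, adjusted p = 0.000752). When replicate 3 of the LPS group was left out, the log2 fold changes were 1.05 and 1.19 and both genes were called, beside 26.2% of all genes. Library size scaling called neither. S100a8 fell just under the threshold, at 0.998, without IRF5 KO unstimulated replicate 3.

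In 6 of the 8 tested members the IRF5 KO LPS libraries lay entirely above the unstimulated ones, beside 16.6% of tested genes. Lcn2 was at 16.03, 17.7 and 16.1 CPM and then at 46.7, 43.9 and 66.7 CPM, with no overlap, yet its log2 fold change of 1.66 ± 0.74 (SE) missed the threshold (adjusted p = 0.0867). Its error was estimated from the spread over all 6 groups. Leaving out WT LPS defactinib replicate 3 gave 1.67 ± 0.19 (SE, adjusted p = 3.92e-05), and Lcn2 was then called. Ngp stood on the threshold, from 12.4, 15.9 and 12.1 CPM to 21.5, 21.02 and 38.0 CPM (log2 fold change 0.9995 ± 0.37, SE, adjusted p = 0.0459), and was also called without that library. Leaving out replicate 1, 2 or 3 of WT LPS defactinib brought the count to 4, beside 12.8%, 13.1% and 13.4% of all genes called in either direction.

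Saa3 was at 36.8, 27.1 and 34.4 CPM unstimulated and at 51.4, 51.0 and 48.2 CPM after LPS in IRF5 KO cells (log2 fold change 0.61 ± 0.51, SE, adjusted p = 0.349). Camp changed by 0.74 ± 0.38 (adjusted p = 0.128) and Ltf by 0.65 ± 0.39 (adjusted p = 0.195). For Ngp, Camp and Ltf the value depended on IRF5 KO LPS DMSO replicate 3, the library that resembled unstimulated cells over all genes. It was at 38.0 CPM in Ngp, 3.54 CPM in Camp and 19.2 CPM in Ltf, and without it the log2 fold changes were 0.66, 0.36 and 0.25.

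The difference between genotypes in the response to LPS was tested as an interaction. No tested member was called by edgeR, none had an unadjusted p below 0.05, and DESeq2 and limma-voom called none, beside 9.83% of all genes called by edgeR. The WT minus IRF5 KO differences of log2 fold change ran from 0.13 in Saa3 to 0.84 in Lcn2, with adjusted p from 0.462 to 0.917. With both libraries that stand apart left out, an alternative chosen after the data were seen, the difference for Lcn2 was 1.06 ± 0.20 (SE, adjusted p = 0.000257) and passed. In that fit Ngp, Camp and Ltf differed by 0.86, 0.82 and 0.87 with adjusted p of 0.0311, 0.0378 and 0.0363, under the fold threshold, and 24.7% of all genes were called.

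Defactinib before LPS was followed by different changes in WT according to 1 library. Over all libraries 1 of 8 tested members was called, Saa3, beside 10.4% of tested genes called higher, and none was called lower, beside 18.6%. Saa3 was at 51.7 and 41.7 CPM in defactinib replicates 1 and 2, inside the LPS DMSO range of 26.8 to 58.9 CPM, and at 254.3 CPM in replicate 3. The log2 fold change of 1.38 ± 0.51 (SE, adjusted p = 0.0321) thus rested on 1 library, and without it the value was 0.09 ± 0.28 (adjusted p = 0.806). Leaving out IRF5 KO LPS DMSO replicate 3, or either replicate 2 or replicate 3 of WT LPS DMSO, also ended the call. So did the replicate block (1.28, adjusted p = 0.0678), limma-voom, no filter, only the groups compared and the threshold inside the test.

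Lcn2 was split in the same way. After defactinib it was at 13.3 and 12.3 CPM in replicates 1 and 2, below every LPS DMSO library, and at 203.7 CPM in replicate 3, which was 15.9 times the mean of the other 2. The log2 fold change over all libraries was 1.23 ± 0.73 (SE, adjusted p = 0.159). Leaving replicate 3 out turned it to -1.32 ± 0.21 (SE, adjusted p = 0.000133), and Lcn2 was then called lower. Leaving out replicate 1 or replicate 2 instead gave 1.76 each time (adjusted p = 0.0326 and 0.0341), and Lcn2 was then called higher.

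The 3 other specific granule genes followed that pattern at a smaller scale. Ngp was at 9.54 and 11 CPM in the first defactinib libraries and at 28.9 CPM in replicate 3, and its log2 fold change went from -0.77 ± 0.37 (SE, adjusted p = 0.0861) to -1.43 ± 0.31 (adjusted p = 0.00143) when the latter was left out. Ltf was at 6.98, 7.03 and 19.9 CPM, and its change went from -0.42 ± 0.39 to -1.09 ± 0.33 (SE, adjusted p = 0.0121). Camp was at 1.12, 1.73 and 4.11 CPM, and its change went from -0.20 to -0.88 ± 0.31 (adjusted p = 0.0262), under the fold threshold. In the fit without this library, in which 30.3% of all genes were called, Lcn2, Ngp and Ltf were lower, and that count of 3 set against 1 over all libraries shows how far the comparison turns on 1 library.

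The calprotectin genes did not share this split. S100a8 was at 54.8, 67.4 and 57.1 CPM after defactinib and S100a9 at 44.0, 53.8 and 55.5 CPM, all inside the range of the LPS DMSO libraries. Their log2 fold changes were -0.05 ± 0.20 (SE, adjusted p = 0.829) and -0.21 ± 0.19 (adjusted p = 0.353), and 0.00 and -0.25 without replicate 3. For S100a8 the sign also changed with library size scaling, with limma-voom and without WT LPS DMSO replicate 3 or defactinib replicate 1, and for S100a9 without WT LPS DMSO replicate 3.

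**Figure D3:**
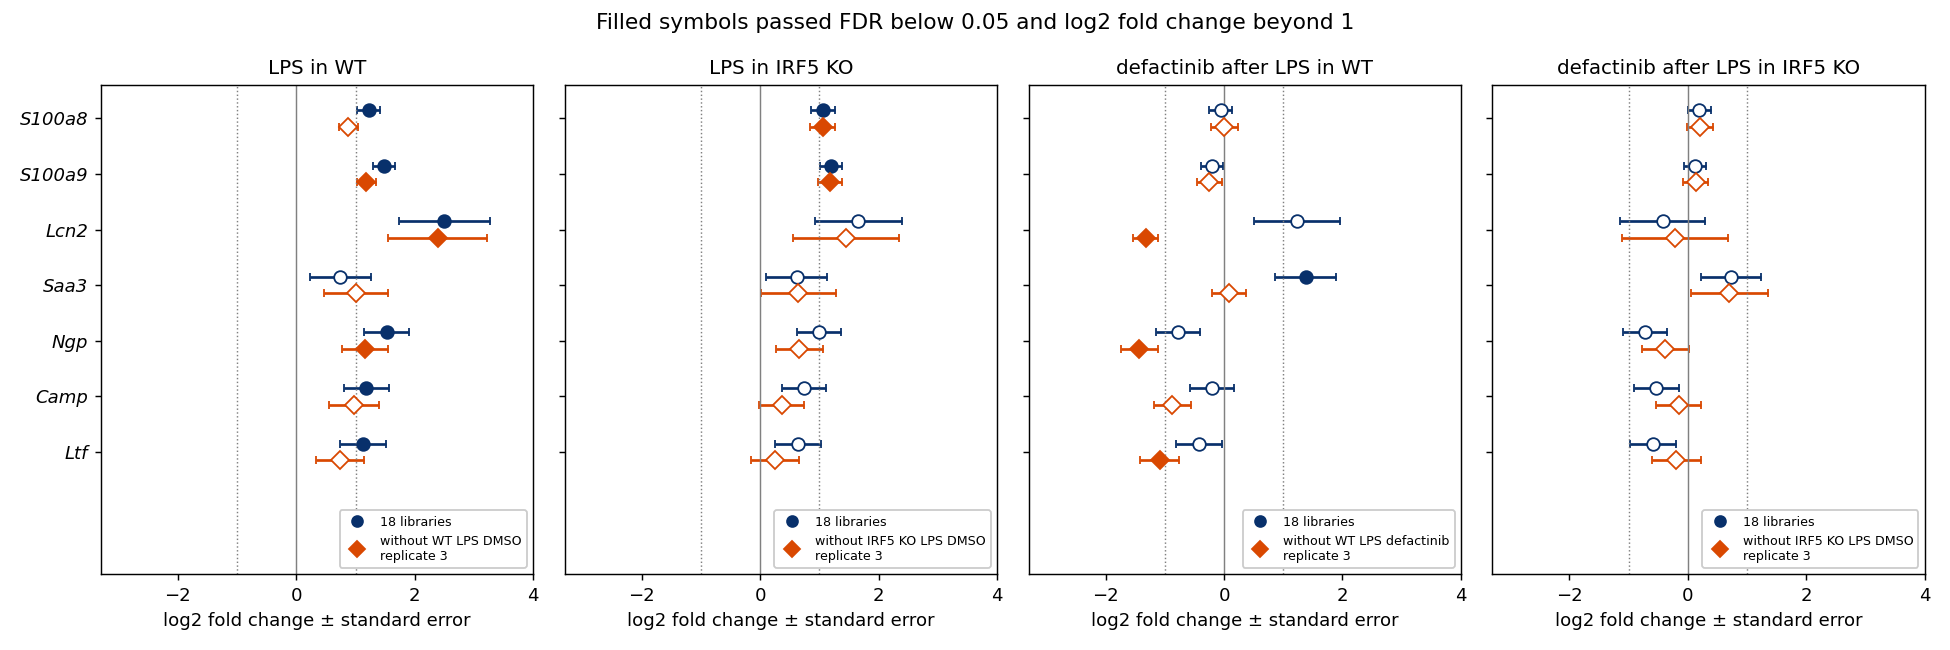
Log2 fold change (x axis, bars are standard errors) of 7 genes in 4 comparisons, over 18 libraries (circles) and with the named library left out (diamonds). Filled symbols passed the threshold. In WT cells after defactinib, Lcn2 moves from 1.23 to -1.32 and Saa3 from 1.38 to 0.09 when replicate 3 is left out.

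In IRF5 KO cells no tested member was called after defactinib by edgeR, DESeq2 or limma-voom, and none had an unadjusted p below 0.05, beside 0.919% of all genes called. The 3 defactinib libraries were close to each other, at 39.8, 38.2 and 39.3 CPM in Lcn2, 16.96, 16.2 and 15.9 CPM in Ngp and 81.7, 81.8 and 86.0 CPM in Saa3. Saa3 lay above all LPS DMSO libraries (log2 fold change 0.73 ± 0.51, SE, adjusted p = 0.407), and Ngp below all of them (-0.72 ± 0.37, adjusted p = 0.255). Lcn2 and Ltf were also without overlap and lower, at -0.42 and -0.59. These 4 members without overlap are beside 26.6% of all tested genes in either direction. Without IRF5 KO LPS DMSO replicate 3 the values of Ngp, Camp, Ltf and Lcn2 were -0.38, -0.16, -0.19 and -0.21, and that of Saa3 was 0.70.

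The difference between the genotypes in the change after defactinib was not called for any member, with none at an unadjusted p below 0.05 by edgeR and none called by DESeq2 or limma-voom, beside 22.8% of all genes. Lcn2 had a WT minus IRF5 KO difference of 1.66 ± 1.02 (SE, adjusted p = 0.22), which became -0.88 ± 0.28 (adjusted p = 0.0193) without WT LPS defactinib replicate 3. With both libraries that stand apart left out, it was -1.13 ± 0.21 (adjusted p = 0.000147), and that of Ngp was -1.08 ± 0.34 (adjusted p = 0.0121). Both then passed, beside 34.2% of all genes.

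Comparing the genotypes directly, no tested member differed by the threshold in unstimulated cells, after LPS or after LPS with defactinib. None had an unadjusted p below 0.05 in edgeR, and DESeq2 and limma-voom called none, beside 7.31%, 25.8% and 17.3% of all genes called. Unstimulated, all 8 log2 differences of WT minus IRF5 KO were below 0, from -0.04 in S100a8 to -1.53 in Lcn2. Lcn2 was at 4.51 to 7.67 CPM in WT and at 16.03 to 17.7 CPM in IRF5 KO cells, without overlap, and the difference of -1.53 ± 0.75 (SE) had an adjusted p of 0.211. A fit of only the unstimulated libraries gave -1.52 (adjusted p = 0.00018), and leaving out WT LPS defactinib replicate 3 gave -1.53 ± 0.19 (adjusted p = 4.06e-05), beside 7.59% of all genes called. Ngp and Camp were also lower in WT without overlap, at 8.39 to 11.96 against 12.1 to 15.9 CPM and 1.10 to 1.32 against 1.34 to 1.56 CPM. Such separation was seen in this direction for 26.5% of tested genes.

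After LPS, S100a8, S100a9, Ngp, Camp and Ltf differed between WT and IRF5 KO by log2 values from -0.03 to 0.21, with overlap of the libraries in each. Without IRF5 KO LPS DMSO replicate 3 the differences of Ngp, Camp and Ltf were 0.40, 0.49 and 0.61 (adjusted p = 0.402, 0.26 and 0.213), and those of S100a8 and S100a9 were 0.12 and -0.02. Lcn2 alone did not overlap, at 28.8 to 37.5 CPM in WT and 43.9 to 66.7 CPM in IRF5 KO cells (-0.69 ± 0.72, SE, adjusted p = 0.438), beside 23.6% of tested genes lower in WT without overlap. Without that library the difference of Lcn2 was -0.48. Under LPS with defactinib, S100a9 was the gene without overlap, at 44.0 to 55.5 CPM in WT and 60.8 to 69.9 CPM in IRF5 KO cells (-0.36 ± 0.19, SE, adjusted p = 0.145), beside 26% of tested genes in that direction. Lcn2 differed by 0.97 ± 0.72 over all libraries and by -1.59 ± 0.22 (SE, adjusted p = 4.8e-05) without WT LPS defactinib replicate 3, when it was called lower in WT beside 16.2% of all genes called.

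By the mean level, the order of the groups was not the same for each gene. In S100a8 and S100a9 the unstimulated groups, at 26.6 and 27.4 CPM and at 21.2 and 26.3 CPM, were below all 4 LPS groups, whose means were 57.1 to 65.4 CPM and 51.1 to 65.6 CPM. The libraries of these 4 groups overlapped in S100a8, while in S100a9 WT LPS defactinib (51.1 ± 6.2 CPM, SD, n = 3) lay below both IRF5 KO LPS groups. In Lcn2 WT unstimulated cells were lowest, at 5.75 ± 1.69 CPM (SD, n = 3), followed by IRF5 KO unstimulated cells at 16.6 ± 0.9, WT LPS DMSO at 32.5 ± 4.5, IRF5 KO LPS defactinib at 39.1 ± 0.8 and IRF5 KO LPS DMSO at 52.5 ± 12.5 CPM. WT LPS defactinib had a mean of 76.5 CPM with an SD of 110.2, which places it nowhere in that order. In Saa3 the IRF5 KO LPS defactinib libraries, at 83.2 ± 2.4 CPM (SD, n = 3), were above every other library except WT LPS defactinib replicate 3.

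Across the 18 libraries the genes fell together in a way that the list itself did not use. As a description over libraries that share their treatments, S100a8 and S100a9 had a Pearson r of 0.974 in log2 CPM. Ngp, Camp and Ltf had r of 0.929 to 0.948 with each other, and between 0.525 and 0.713 with the calprotectin genes. Lcn2 correlated with Camp and Ngp at 0.829 and 0.823, with S100a9 at 0.777 and with Saa3 at 0.757, whereas Saa3 and Ngp had r = 0.328. In the 16 libraries left without both that stand apart, S100a8 and S100a9 had r = 0.974, the 3 specific granule genes had 0.889 to 0.944 with each other and 0.539 to 0.719 with the calprotectin genes, and Lcn2 had 0.862 with S100a9, 0.805 with Ngp, 0.717 with Camp and 0.637 with Saa3. The ratio of S100a9 to S100a8 per length stayed between 1.02 and 1.41, and that of Ltf to Ngp between 0.159 and 0.259, while the ratio of Saa3 to Lcn2 ran from 0.72 to 7.1.

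**Figure D4:**
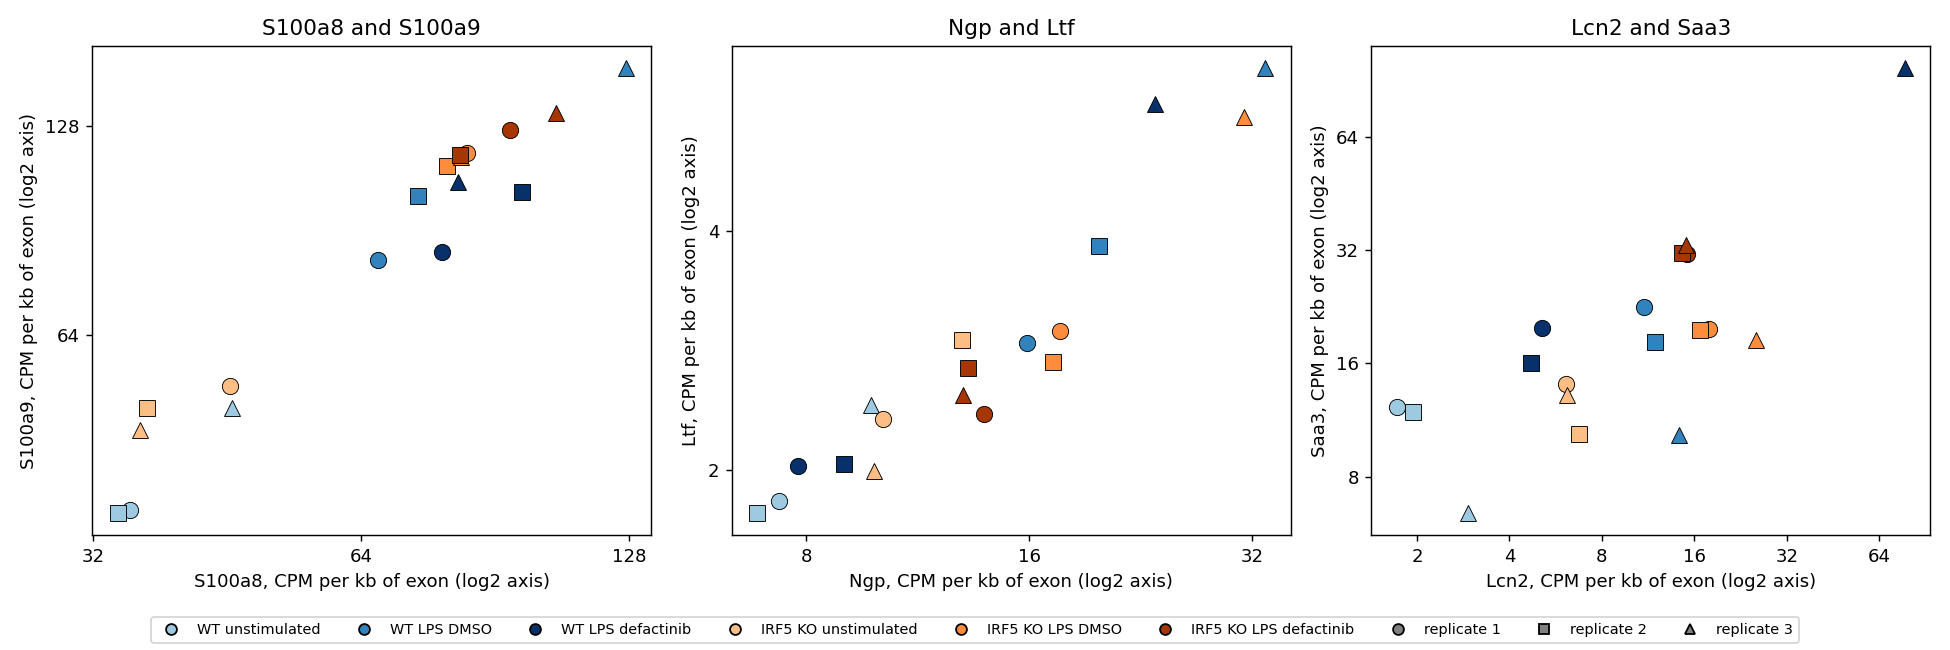
Levels of 3 pairs of genes in 18 libraries, in CPM per kb of exon on log2 axes, with colour for the group and symbol for the replicate number. S100a9 follows S100a8 (r = 0.974) with both unstimulated groups at the low end, and Ngp and Ltf follow each other (r = 0.948). Lcn2 and Saa3 follow each other less closely (r = 0.757, and 0.637 without both libraries that stand apart). WT LPS defactinib replicate 3 is at the upper right of that panel.

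The genes outside the set whose log2 CPM was most like each member over the 18 libraries differed between these groups. For S100a8 they were the neutrophil-attracting chemokines Cxcl2 (r = 0.923) and Cxcl1 (0.917) and the NF-kB regulator Nfkbiz (0.917), and for S100a9 the chemokine-binding receptor Ccrl2 (0.945), Nfkbiz (0.941) and Cxcl1 (0.936). For Ngp they were Cd177 (0.892), a neutrophil surface protein, Relb (0.889) and Hdc (0.888), which encodes histidine decarboxylase. Camp was most like Lad1 (0.903), Htr7 (0.892) and Hdc (0.862), and Ltf most like Scube3 (0.846), Lad1 (0.843) and Htr7 (0.825). Lcn2 went with Tbc1d4 (0.949), Stat4 (0.940) and Ccdc88b (0.897), and Saa3 with Ly6c2 (0.903), Aoah (0.900) and C3 (0.867). In each of these 6 genes WT LPS defactinib replicate 3 was the highest of all libraries, for instance 29.0 CPM in Stat4 against at most 13.4 CPM elsewhere, and 100.0 CPM in Aoah against at most 58.2 CPM. Without both libraries that stand apart, the r of all pairs named here was between 0.732 and 0.948, the lowest being that of Ltf and Lad1.

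The primary granule genes were near the limit of detection. Elane had 129 read pairs over all libraries, with 3, 4 and 7 in WT unstimulated, 2, 11 and 6 in WT LPS DMSO, 0, 15 and 17 in WT LPS defactinib, 4, 14 and 9 in IRF5 KO unstimulated, 1, 12 and 14 in IRF5 KO LPS DMSO and 2, 6 and 2 in IRF5 KO LPS defactinib. Libraries of 1 group differed by up to 17 read pairs, and over all 18 libraries no comparison of Elane was called. Mpo had 74 read pairs in all, at most 16 in WT LPS DMSO replicate 3 and 0 in 7 libraries. A count of 0 allows up to 3 read pairs, or 0.0484 to 0.0764 CPM by counted pairs depending on the library, for counting error only. Mpo did not pass the filter and was not tested over all 18 libraries. Leaving out WT LPS defactinib replicate 1, which had 0 read pairs of both genes, let both be called higher in WT under LPS with defactinib, a call that rests on 2 WT libraries of 9 to 17 read pairs a gene.

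Other neutrophil granule genes, a list of 24 of which 21 were tested, had 5 members higher and none lower after LPS in WT, beside 11.6% and 9.71% of all tested genes, with a median log2 fold change of 0.78 against -0.005 over all genes. Slpi (2.82), a secreted protease inhibitor, Cst7 (2.09), Pglyrp1 (1.31), Cd177 (1.21) and Itgb2l (1.13) were the ones called. In IRF5 KO cells 3 were higher, beside 7.07% of all tested genes, namely Itgb2l (1.41), Pglyrp1 (1.19) and Slpi (1.04). Without LPS DMSO replicate 3 they were at 1.69, 1.29 and 0.955, Slpi was no longer called, and Prtn3 (1.98) was. With defactinib in WT over all libraries, Slpi was the only one called (-1.23), beside 18.6% of all genes lower. Without replicate 3, Slpi (-1.49), Olfm4 (-2.35) and Fcnb (-1.05) were called lower and Itgb2l (1.24) higher. Before LPS, 7 differed between the genotypes, beside 3.8% of all tested genes higher and 3.51% lower in WT. Lower in WT were Mmp9 (-3.45), Mmp8 (-2.87), Hp (-2.55), Padi4 (-2.37), Cst7 (-1.46) and Ncf4 (-1.09), and Chil3 (1.30) was higher. Lyz2 and Cybb, the most abundant of the list at 10450 and 2031 CPM, were not called in any of the 9 comparisons over all libraries. Without WT LPS defactinib replicate 3, Cybb was called in the difference of the defactinib effect between genotypes (-1.13).

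Among 27 other alarmin, S100 and acute phase genes, 17 were tested, and 4 were higher and none lower after LPS in WT, where the shares of all genes are again 11.6% and 9.71%. These were Il1a (5.18), Ptx3 (2.96), Orm1 (2.21) and Cp (1.91), the last of which was no longer called without IRF5 KO LPS DMSO replicate 3 (1.92, adjusted p = 0.0648). Of these Il1a (-3.87) and Ptx3 (-3.47) were the 2 called lower with defactinib in WT, beside 18.6% of all genes, at -4.60 and -3.67 without replicate 3, where Orm1 (-1.42) was called too. In IRF5 KO cells Il1a (3.99), Ptx3 (1.16) and S100a5 (1.57) were higher after LPS, beside 7.07% of all genes, and Il1a was at 3.63, Ptx3 at 0.29 and no longer called, and S100a5 at 2.01 without LPS DMSO replicate 3, where S100a14 (2.83) was called too. No other S100 gene was called in WT cells for either treatment over all libraries, and S100a5 had a mean of only 0.313 CPM. S100a5 was called higher with defactinib in WT without WT LPS defactinib replicate 3 (1.70) and without IRF5 KO LPS DMSO replicate 3 (1.35). The liver-type serum amyloids Saa1 and Saa2 had 4 and 0 read pairs in all 18 libraries, against 47247 for Saa3.

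Of 16 genes for receptors of the proteins, 12 were tested. Cd14 (2.64), Fpr1 (2.96), Fpr2 (1.93) and Ly96 (1.21) rose with LPS in WT and the ATP receptor P2rx7 (-1.19) fell, 4 and 1 of 12 beside 11.6% and 9.71% of all genes. With defactinib in WT 5 were lower and 1 higher, beside 18.6% and 10.4%. Tlr2 (-2.92), Fpr1 (-3.43), Cd14 (-1.93), Fpr2 (-1.34) and Tlr4 (-1.27), the last being the receptor of LPS and of calprotectin, were lower, and Ager (1.24) was higher. These 6 kept their direction and were called without replicate 3, as was Ly96 (-1.06). Cd36 and Lrp1, the most abundant, were not called. All 20 regulators of neutrophil and acute phase genes were tested, and 4 were higher and 7 lower after LPS in WT, with the same shares of all genes as above. Nfkbiz, which is known to be needed for Lcn2 induction, rose by 7.99 in WT and by 8.22 in IRF5 KO cells, and by 8.71 in the latter without LPS DMSO replicate 3. Cebpa fell by 3.07 in WT and by 1.77 in IRF5 KO cells, where the LPS DMSO libraries spanned 8.09 to 75.7 CPM, and was at -3.67 without replicate 3. The granulocyte factor Cebpe was lower in WT than in IRF5 KO cells before LPS by -3.84. Of 14 tested iron and metal handling genes, Hamp (6.83), Slc39a8 (1.94), Steap4 (6.89) and Mt2 (1.38) were higher and Slc30a1 (-1.43) was lower after LPS in WT, again beside 11.6% and 9.71% of all genes. In IRF5 KO cells Hamp (3.60) and Mt2 (1.82) were higher, beside 7.07% of all genes. Without LPS DMSO replicate 3, Hamp (0.64) was no longer called, while Slc39a14 (-1.25) and Slc30a1 (-1.203) were called lower. With defactinib in WT 6 of the 14, among them Hamp (-4.15) and Steap4 (-2.87), were lower and 1, Mt2 (1.01), was higher, beside 18.6% and 10.4% of all genes. Between the genotypes after LPS 5 were higher and 3 lower in WT, beside 25.8% of all genes in either direction. Fth1 and Ftl1, the ferritin chains and most abundant of that list, were not called.

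Genes of other cells moved in part with these results. Of 15 neutrophil markers outside the set, 8 were higher and 1 lower after LPS in WT, beside 11.6% and 9.71% of all genes. In IRF5 KO cells 1 was higher, beside 7.07% of all genes, and 3 were higher and 2 lower without LPS DMSO replicate 3, beside 26.2% in either direction. Their summed level was 360 to 369 CPM in WT unstimulated, 477 to 568 CPM in WT LPS DMSO and 277 to 470 CPM in WT LPS defactinib libraries. Without Mmp8, the most abundant of them, it was 164 to 190 and 297 to 379 CPM, and 102 to 118 CPM with defactinib. The defining marker Ly6g was at 0.0562 to 0.103 CPM in WT unstimulated and at 0.162 to 0.585 CPM in WT LPS DMSO libraries (log2 fold change 1.79), Retnlg was at 0 to 0.102 CPM in both, and Cxcr2, the 1 called lower, fell by 3.40 on the log2 scale. Il1f9 was at 90.3 to 93.1 CPM in WT unstimulated and at 186 to 230 CPM in WT LPS DMSO libraries. In the same groups Cd177 was at 1.71 to 2.62 and 3.04 to 7.17 CPM, and Asprv1 at 0.355 to 0.784 and 2.09 to 5.67 CPM. Their part in the changes of the members was not tested, and in such bulk samples fewer cells of a type and less RNA per cell cannot be told apart.

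In WT LPS defactinib replicate 3 the neutrophil markers without Mmp8 summed to 102 CPM, the lowest of its group, with Il1f9, the largest part, at 47.4 CPM against 76.8 and 73.5 CPM. Of these 14 markers 6 were highest in that replicate, among them Ly6g at 0.514 CPM against 0.186 and 0.265 CPM, Cd177 at 5.32 against 2.56 and 2.26 CPM, Cxcr2 at 0.848 against 0.465 and 0.409 CPM and Trem1 at 31.8 against 24.3 and 12.9 CPM. Hdc, which is on the list of mast cell and basophil markers, was at 25.5 CPM there against 2.07 and 1.95 CPM in replicates 1 and 2, and at 31.9 to 42.5 CPM in WT LPS DMSO libraries, while the other 8 markers of that list were each below 1 CPM in it. Of these Gata2 was at 0.899 CPM against 0.674 and 0.313 CPM, Cpa3 at 0.206 against 0.233 and 0.168 CPM, Mcpt8 at 0.18 against 0.0698 and 0.0722 CPM and Ms4a2 at 0.0514 against 0.0233 and 0.0962 CPM, and the rest were at 0, Mcpt4 and Cma1 in every other WT library as well. In IRF5 KO LPS DMSO replicate 3, Hdc was at 28.9 CPM against 6.64 and 6.71 CPM, Cxcr2 at 6.24 against 0.194 and 0.61 CPM and the neutrophil markers without Mmp8 summed to 227 CPM against 107 and 108 CPM. Of these 14 markers 6 were highest in that replicate. Ly6g was lower there, at 0.9 against 1.091 and 1.087 CPM, as were Csf3r (7.16 against 9.69 and 9.7 CPM) and Retnlg (0.0978 against 0.46 and 0.424 CPM). With Mmp8, at 991.5 against 1549 and 1568 CPM, the sum was 1218 CPM against 1656 and 1676 CPM. Granulocyte-monocyte progenitor markers summed to 27.7 to 29.8 CPM in WT unstimulated and 21.2 to 22.9 CPM in WT LPS DMSO libraries, with Ctsg at or near 0. In IRF5 KO they summed to 50.5 to 64.9 CPM unstimulated and 55.9 to 65.1 CPM after LPS, and 3 of 9 tested, Cd34 (-2.45), Kit (-1.30) and Cebpe (-3.84), were called lower in WT before LPS and none higher, beside 3.51% and 3.8% of all genes. Sox4 of that list had a higher value in WT (1.15, adjusted p = 0.162). In the fit without LPS DMSO replicate 3 of IRF5 KO, Sox4 was called higher and Gfi1 was called lower as well. The shares of all genes given for this list belong to the fit of all libraries and not to that one. Of 15 neutrophil markers 4 were called lower in WT before LPS and none higher, Mmp8 (-2.87), Retnlg (-3.65), Ly6g (-2.06) and Csf3r (-1.19). The sum of all 15 was also lower in WT, at 360 to 369 CPM unstimulated against 1125 to 1767 CPM in IRF5 KO unstimulated libraries. The sum of the 14 without Mmp8 went the other way. It was higher in WT unstimulated, at 164 to 190 CPM, than in IRF5 KO unstimulated libraries, at 124 to 148 CPM, with Il1f9 at 90.3 to 93.1 against 49.4 to 71.1 CPM. Of 8 eosinophil markers 6 rose with LPS in WT, beside 11.6% of all genes (sum 72.7 to 80.4 and 118 to 145 CPM), and none was called after LPS in IRF5 KO. With defactinib in WT 4 were lower, beside 18.6% of all genes. Without replicate 3 of that group 6 were lower, beside 30.3% of all genes called in either direction. Of 7 tested dendritic cell markers 2 were higher after LPS in WT, beside 11.6% of all genes. Dendritic cell markers summed to 2381 to 2552 CPM in WT unstimulated and 2833 to 2952 CPM in WT LPS DMSO libraries, most of it Itgax. Epithelial markers, nearly all Cdh1, summed to 162 to 172 and 70 to 88.5 CPM. The markers of T, B and NK cells summed to at most 1.04 CPM and those of erythroid cells to at most 2.67 CPM in any library. The part of these markers in the levels of the members was not tested either.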

How the data were processed

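RNA-seq of 18 BMDM libraries in 6 groups of 3 was used, all mapped by their labels. According to the authors' methods and the header of the deposited table, STAR placed the reads on mm10 and read pairs were counted with featureCounts 1.6.3, reverse stranded, uniquely mapped only, over exons summed per Ensembl gene. The deposited values are raw counts, not normalised. Reads that map to several genes were thereby dropped, which lowers genes with near-identical copies such as the Stfa family. The study's methods name DESeq2 for its own comparisons, which were not used here. The STAR version and the annotation release were not given in the sources used here.

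Of the gene identifiers, 50376 had a symbol in GENCODE M21. Genes were kept by filterByExpr of edgeR 4.0.16 (R 4.3.3) over the 6 groups, which left 15663. The main test was edgeR's quasi-likelihood F test with TMM scaling, a robust fit to all 18 libraries and no replicate block, two-sided, with Benjamini-Hochberg adjustment over all tested genes of each comparison, calling genes with an adjusted p below 0.05 that also changed by more than 1 on the log2 scale. Standard errors are the log2 fold change divided by the square root of F. Log2 CPM for correlations used a prior count of 2. Depth was 39282181 to 61949143 counted pairs, and at these depths genes below 1 CPM rest on few reads. Intervals and floors cover counting error only.

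Replicate numbers were not taken as pairs, since libraries of the same number had a median correlation of residuals of 0.00455 over 45 pairs. No libraries of a group agreed within sampling noise, with chi-square values of 2.33 to 440.9 per gene where noise alone gives 1. The members, the gene lists and the tests were chosen with earlier results of these data known. All 9 members are named. From each list the called genes and the 2 with the highest mean CPM could be named, and for members of at least 1 CPM the 3 genes of highest Pearson r. The alternatives were DESeq2 1.42.0 and its size factors, scaling by library size only, a filter of 5 CPM in 3 libraries or none, limma-voom (limma 3.58.1), the replicate number as a block, only the groups compared, no fold threshold, a threshold inside the test (glmTreat), each library left out, and, chosen after the data were seen, both libraries that stand apart left out, which was also done for the correlations and the gene lists. Promoters were matched by symbol to RefSeq for all 9 members. Protein sequences were not analysed here.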

Additional observations from a re-analysis of the deposited data

How the results depend on the processing

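Alternatives were compared for the count of called members in each of 9 comparisons and for 34 combinations of gene and comparison, of which 897 of 982 values kept their direction and their side of the threshold. After LPS in WT 6 members were called, and 3 with library size alone, which shifts the median of all genes to -0.38, 1 with the threshold inside the test, and 3 to 6 with single libraries left out. In IRF5 KO cells 2 were called, 0 with library size alone or the threshold inside the test, and 1 to 4 with single libraries left out. For defactinib in WT 1 was called, and 0 with no filter, limma-voom, only the groups compared or the threshold inside the test, 0 to 3 with single libraries left out and 3 with both libraries that stand apart left out. Between genotypes, unstimulated cells gave 0, or 1 with only the groups compared, 0 to 1 with single libraries left out and 1 with both left out. Under LPS with defactinib the count was 0 to 2 with single libraries left out and 1 with both left out, and the 2 were Elane and Mpo without WT LPS defactinib replicate 1. With both left out the interactions gave 1 (LPS) and 2 (defactinib) in place of 0.

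Signs turned as follows. For defactinib in WT, S100a8 was at 0.15 with library size alone and 0.0021 with limma-voom, and -0.20 to 0.30 with single libraries left out. S100a9 ran from -0.37 to 0.11 and Camp from -0.88 to 0.16. Lcn2 was at -0.027 with limma-voom, -1.34 with both left out and -1.32 to 1.76 with single libraries left out. For defactinib in IRF5 KO cells, S100a9 was at -0.0021 with library size alone. Between genotypes under LPS with defactinib, Lcn2 was at -0.30 with limma-voom, -1.61 with both left out and -1.59 to 1.49 with single libraries left out. In the defactinib interaction, Lcn2 was at -1.13 with both left out and -0.88 to 2.20 with single libraries left out, and Ngp at 0.29 with library size alone, 0.036 with the filter of 5 CPM and -0.70 to 0.34 with single libraries left out. The cause of these changes was not tested.

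With the replicate number as a block, 0 members were called for defactinib in WT, where Saa3 was at 1.28 (adjusted p = 0.0678), and no other count of called members moved. Only 4 of 45 pairs of same-numbered libraries correlated above 0.1, and 12 of 18 libraries correlated best with their own number, a hint from the data and not from the design. Depth limits Elane and Mpo.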

Other observations

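Defactinib with LPS was also compared, by level alone, with the unstimulated state. In WT LPS defactinib replicates 1 and 2, Ltf (6.98 and 7.03 CPM) lay inside the unstimulated range of 6.09 to 8.33 CPM and Ngp (9.54 and 11 CPM) inside that of 8.39 to 11.96 CPM. Camp was inside the range of 1.10 to 1.32 CPM in replicate 1 (1.12 CPM) and above it in replicate 2 (1.73 CPM). Lcn2 (13.3 and 12.3 CPM) lay above the unstimulated range of 4.51 to 7.67 CPM, and S100a8 (54.8 and 67.4 CPM) above that of 23.6 to 31.8 CPM. S100a9 (44.0 and 53.8 CPM) lay above that of 18.5 to 26.2 CPM, and Saa3 (51.7 and 41.7 CPM) above that of 16.7 to 31.8 CPM. Replicate 3 of this group was above the unstimulated range in all 7 genes. These values were set side by side and not tested.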
